A study of Mus musculus with 12 samples.

Results

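Chemokines are small secreted proteins that steer leukocytes, and chemokine receptors are the G protein-coupled receptors that read them. Members were every gene whose symbol opens with Ccl, Ccr, Cxcl, Cxcr, Cx3cl, Cx3cr, Xcl or Xcr followed by a digit, which gave 58 of the 24787 genes in the count tables, 39 ligands and 19 receptors. RNA sequencing of mouse liver was used to study MEC1, a code-named compound whose structure is not used here, in a series about PROTACs, which recruit a ubiquitin ligase to a chosen target, and about mitophagy. The HFD+MEC1 group was C57Bl/6 mice given a high-fat diet and then MEC1 at 0.5 mg/kg into the peritoneum once a day. The HFD group was C57Bl/6 mice given the same diet and then daily vehicle. The ND group was C57Bl/6 mice on a normal diet. Diets ran for 2 months before HFD mice were randomised to MEC1 or vehicle. No transgene or deletion was named for any group, and the labels used here give no age, no sex, no length of dosing and no word on whether ND mice were injected, so diet and injection cannot be told apart in comparisons with ND. Each group had 4 libraries, and nothing in the labels says that they came from separate mice, so p-values measure only the spread between these libraries, which may be technical.

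In liver, resident macrophages (Kupffer cells), endothelial cells, stellate cells and hepatocytes can all make chemokines. Inflammatory chemokines are induced in injury or infection and draw monocytes, neutrophils or T cells, whereas homeostatic chemokines are made steadily and hold lymphocytes and other resident cells in place. Ccl2 acting on Ccr2 is the best known signal for monocyte entry into fatty liver. In whole tissue, fewer cells of a type and less RNA per cell cannot be told apart.

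Libraries held 39916405 to 51340317 counts, and 3 counts corresponded to 0.0590 to 0.0770 CPM (counts per 1000000 counts of the library, with totals corrected for composition by TMM, the trimmed mean of M-values); these limits cover counting error only. Low counts were mostly even numbers (70.1 to 74.7% of counts from 1 to 20), so they appear to count read ends and not read pairs. Hepatocyte markers summed to 61599 to 85763 CPM in HFD+MEC1, 79061 to 90928 CPM in HFD and 79384 to 92827 CPM in ND livers, with 0 of 6 markers absent. Kupffer cell markers summed to 260.3 to 369 CPM in HFD+MEC1, 235 to 359 CPM in HFD and 181 to 265 CPM in ND livers. HFD+MEC1 replicate 3 stood apart from the other libraries for several chemokines. Fold changes without it are given for Ccl6, Ccl9, Ccr1, Cxcl1 and Cxcl14, and others also moved. Of the 58 members, 35 (22 ligands and 13 receptors) had enough counts in enough libraries to be tested, and 23 did not. Because a gene can pass that filter through the group in which it is high, the 35 are not a neutral sample of the family.

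Cxcl12 was the most abundant chemokine transcript in these livers. In RPKM, the authors' reads per kilobase of transcript and per library total, which allows genes to be compared, Cxcl12 averaged 27.9 over the 12 libraries, followed by Ccl9 at 9.62, Cxcl1 at 6.87, Ccl6 at 6.23, Cxcl16 at 3.15 and Cxcl14 at 2.697. Cxcl12 RPKM ran from 20.8 to 33.0 in HFD+MEC1, from 21.5 to 26.9 in HFD and from 29.3 to 33.3 in ND livers, above every other ligand in all but 1 library. That library was HFD+MEC1 replicate 3, in which Cxcl1 reached 33.3 RPKM against 26.9 for Cxcl12. Cxcl12 made up 22.6 to 46.4% of summed ligand RPKM in HFD+MEC1 libraries, 32.2 to 44.9% in HFD libraries and 44.7 to 47.5% in ND libraries. Neighbours lower in the order overlapped: Ccl6 lay above Ccl9 in HFD+MEC1 replicate 3 and in HFD replicates 1 to 3, and below it in the other libraries. The receptors described here were rarer. Over the 12 libraries, for example, Ccr2 averaged 0.421 RPKM, Cxcr4 0.360, Cxcr6 0.248 and Cx3cr1 0.239.

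**Figure D1:**
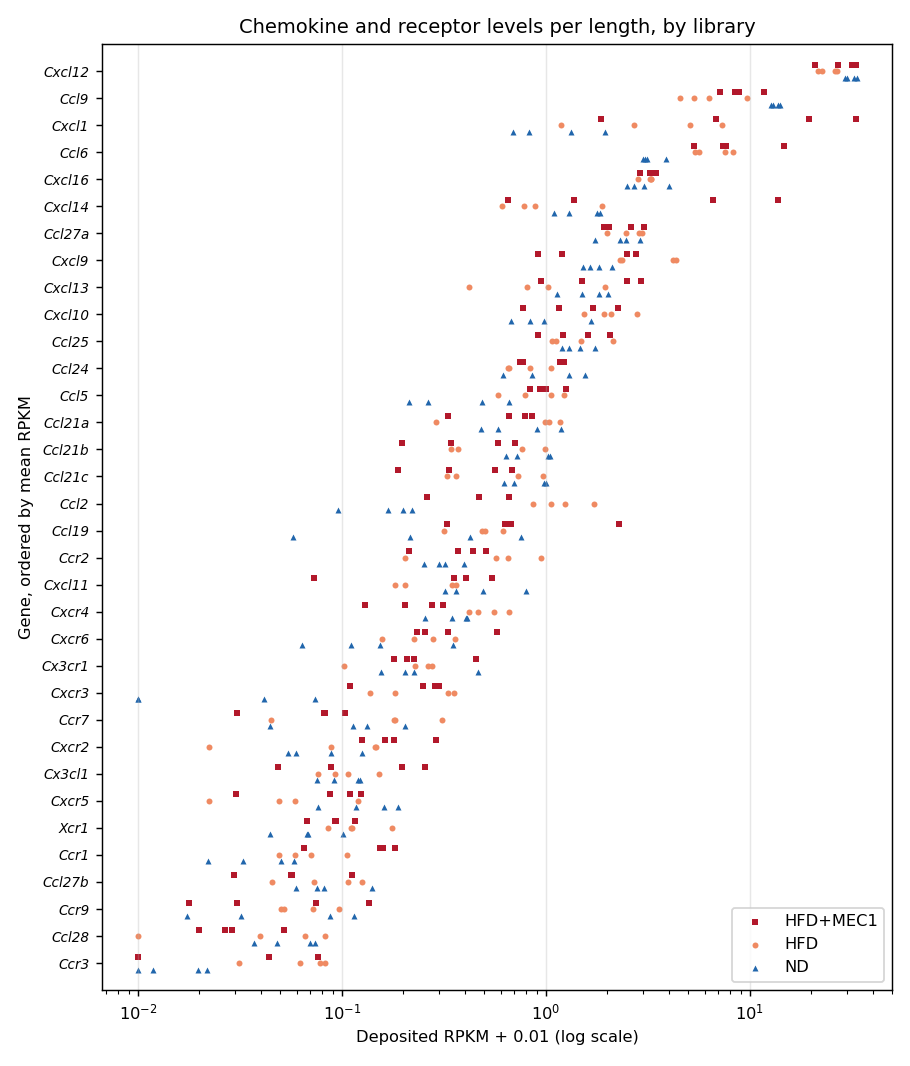
RPKM of 34 tested members in each library on a log10 axis, after adding 0.01 so that values of 0 can be drawn, with squares for HFD+MEC1, circles for HFD and triangles for ND, and genes ordered by mean. Cxcl12 lies at the top, with 20.8 to 33.0 RPKM in HFD+MEC1, 21.5 to 26.9 RPKM in HFD and 29.3 to 33.3 RPKM in ND libraries.

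Between HFD and ND, 4 of the 35 tested members changed, and none passed between HFD+MEC1 and HFD. Calls were made with edgeR's quasi-likelihood F-test at a Benjamini-Hochberg adjusted p under 0.05 over all 14172 genes tested. On HFD, Ccl2 and Cxcr3 rose relative to ND (2 members, beside 3.35% of all tested genes) and Ccl9 and Cxcl12 fell (2 members, beside 2.95%); in either direction 6.3% of all tested genes passed. In HFD+MEC1 relative to ND, Ccl6 and Cxcr3 rose and 0 fell, where 4.54% of all tested genes passed, 2.15% upward and 2.4% downward. Between HFD+MEC1 and HFD, 0 of 35 members passed with edgeR, where 0.0282% of all tested genes did (0.00706% higher and 0.0212% lower). In that comparison 7 members had an unadjusted p under 0.05, 4 higher and 3 lower. Beside them stood 14.8% of all tested genes (6.87% higher and 7.96% lower). DESeq2 called 2 members there, both lower, beside 389 of the 14172 genes (146 higher and 243 lower). The median log2 fold change of the 35 was 0.04 for HFD against ND, 0.05 for HFD+MEC1 against HFD and 0.01 for HFD+MEC1 against ND, beside -0.00, 0.01 and 0.00 over all tested genes. The members were few, and their counts are descriptions. HFD libraries enter both the diet and the MEC1 comparison, so their values are set side by side and not correlated.

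**Figure D2:**
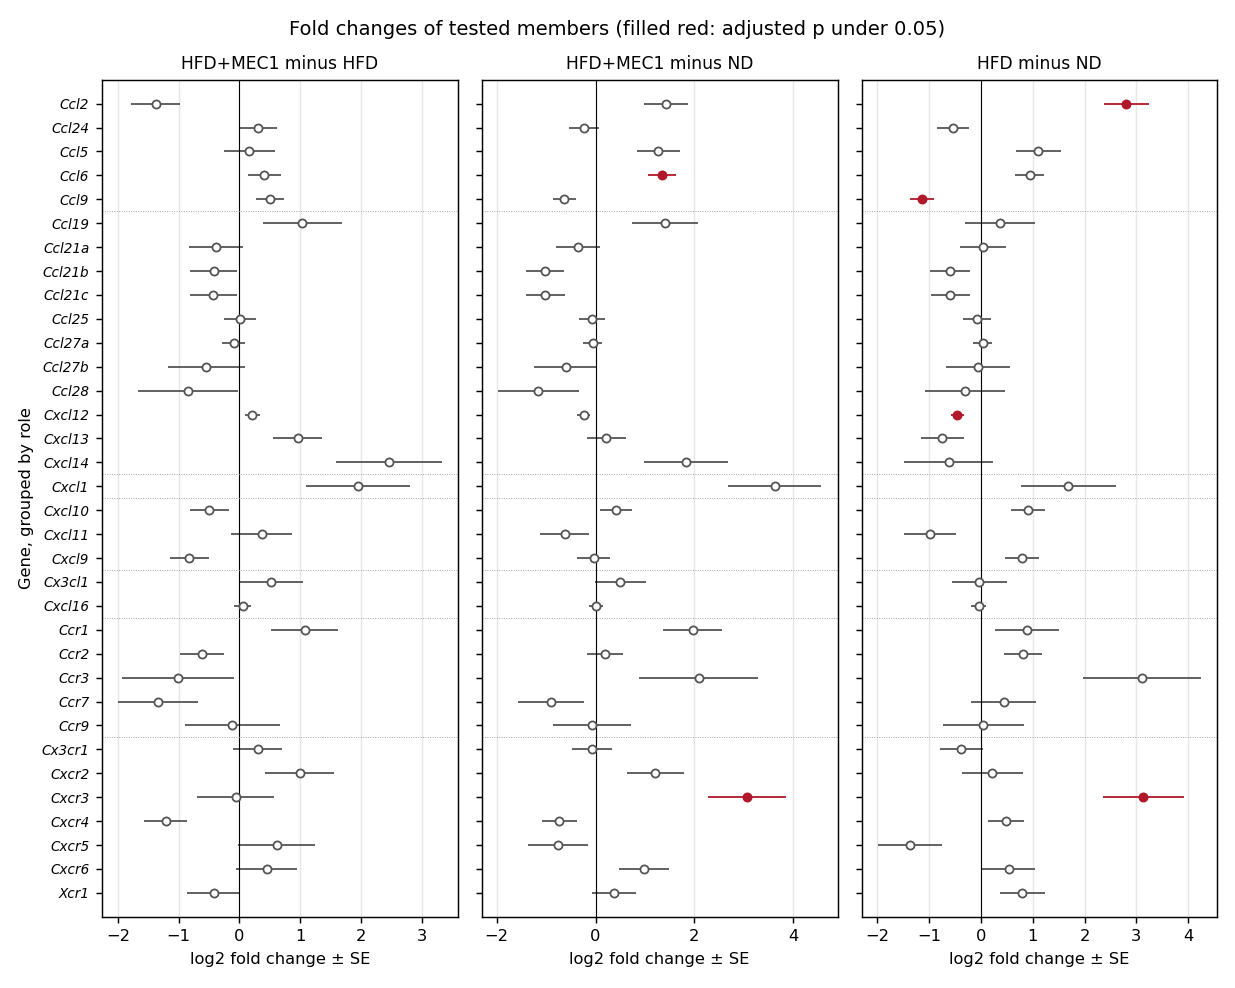
Log2 fold change with SE of 34 tested members in the 3 comparisons, HFD+MEC1 minus HFD, HFD+MEC1 minus ND and HFD minus ND, with filled points for an adjusted p under 0.05. Ccl2 and Cxcr3 lie at 2.81 and 3.13 in HFD minus ND, and no point is filled in HFD+MEC1 minus HFD.

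Ccl2 encodes the monocyte attractant that acts through Ccr2, and lies on chromosome 11 (chr11:82035571-82037453, plus strand, GRCm38). Ccl2 had 20, 24, 10 and 30 counts in HFD+MEC1 libraries, 46, 59, 81 and 40 in HFD libraries and 10, 4, 8 and 8 in ND libraries. Scaled, this gave 0.460 ± 0.178 CPM in HFD+MEC1, 1.20 ± 0.311 CPM in HFD and 0.170 ± 0.0560 CPM in ND livers (SD, n = 4 each). In CPM, no library of any group overlapped another group, and HFD+MEC1 lay between HFD and ND. HFD+MEC1 replicate 3 and ND replicate 1 both had 10 raw counts, and were apart only after scaling (0.257 and 0.226 CPM). Ccl2 rose 6.997-fold on HFD relative to ND (log2 fold change 2.81 ± 0.44 SE, edgeR adjusted p = 0.00168), and the call held in every alternative run. The size of this fold is less firm. ND counts were few, and the log2 fold change ran from 0.92 to 2.97 over the alternatives. These include fits with 0.1 or 1 added to RPKM, and at such low RPKM the fold depends on the amount added. With 1 library left out, the edgeR log2 fold change ran from 2.61 to 2.97. HFD+MEC1 relative to HFD stood at -1.38 ± 0.40 (95% interval -2.23 to -0.53), which missed the threshold with edgeR (adjusted p = 0.143) and passed with DESeq2 (adjusted p = 0.0277). HFD+MEC1 relative to ND stood at 1.43 ± 0.44 (edgeR adjusted p = 0.0800), and passed with DESeq2 (adjusted p = 0.0313) and with limma on log2(RPKM + 0.1) (adjusted p = 0.0351). The median log2 fold change of all tested genes in that limma fit was 0.075.

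Ccr2, the receptor for Ccl2, stood at 1.78, 1.65, 2.28 and 0.940 CPM in HFD+MEC1 libraries, 2.85, 2.55, 3.90 and 0.882 CPM in HFD libraries and 1.15, 1.91, 1.33 and 1.43 CPM in ND libraries. HFD libraries 1 to 3 lay above all ND libraries and HFD replicate 4 below them. Its log2 fold change was 0.81 ± 0.37 for HFD against ND (edgeR adjusted p = 0.224) and 1.09 without HFD replicate 4 (adjusted p = 0.0390). Between HFD+MEC1 and HFD it was -0.62 ± 0.36 (edgeR adjusted p = 0.456). Some reads counted for Ccr2 may not be unique to it. Monocyte and macrophage markers summed to 161 to 209 CPM in HFD+MEC1, 130 to 199 CPM in HFD and 109 to 181 CPM in ND livers, with 0 of 8 markers absent. Most of that sum was Lyz2, Csf1r and Adgre1, and the monocyte marker Ly6c2 averaged under 1 CPM in each group. Of these 8, Gpnmb rose in HFD relative to ND and Itgam rose in HFD+MEC1 relative to ND. Gpnmb averaged 0.334 CPM in HFD+MEC1, 1.77 CPM in HFD and 0.307 CPM in ND livers. In HFD+MEC1 against HFD, 5 of the 8 were positive and 3 negative, and 0 passed by edgeR. The part of these markers in the results for Ccl2 and Ccr2 was not tested.

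Ccl6 and Ccl9 are neighbouring inflammatory CC chemokine genes of rodents on chromosome 11, both ligands of Ccr1. Ccl9 (chr11:83572919-83578636) and Ccl6 (chr11:83587882-83593087) lie on the minus strand of GRCm38 with 9245 bases between them. Their transcripts share no run longer than 25 bases, so reads can be told apart over most of their length. The 250 bases before the RefSeq start of each gene are shown because ND libraries were the highest of all for Ccl9 and the lowest of all for Ccl6. Both are on GRCm38.p6, minus strand, printed 5′ to 3′ along the gene (Ccl9 chr11:83578637-83578886, Ccl6 chr11:83593088-83593337). Capitals mark matches to 4 motifs chosen after the values were seen.
Ccl9: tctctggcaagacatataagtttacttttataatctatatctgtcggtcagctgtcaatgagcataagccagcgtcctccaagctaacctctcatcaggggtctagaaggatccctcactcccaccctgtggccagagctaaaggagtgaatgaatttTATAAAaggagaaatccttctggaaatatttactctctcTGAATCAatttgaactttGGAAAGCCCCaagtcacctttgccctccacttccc
Ccl6: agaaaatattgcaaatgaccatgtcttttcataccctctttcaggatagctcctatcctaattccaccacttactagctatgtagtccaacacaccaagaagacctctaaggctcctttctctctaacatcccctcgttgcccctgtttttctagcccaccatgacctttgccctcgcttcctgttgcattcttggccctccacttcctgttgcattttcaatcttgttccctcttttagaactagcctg
In Ccl9 the capitals match the letters of a TATA box (TATAAA, gene strand, 92 to 87 bases before the start) and an AP-1 site (TGANTCA, 53 to 47 bases before). They also match an NF-kappaB consensus on the opposite strand (35 to 26 bases before). None of these motifs, nor an interferon-stimulated response element (GAAA, NN and GAAA in a row), matched in the Ccl6 window. Over 27025 mouse promoter windows, 3.75% held an NF-kappaB consensus, 6.87% an AP-1 site and 3.04% an interferon-stimulated response element on either strand, and 8.12% a TATA box on the gene strand.

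Ccl9 stood at 24.8, 32.4, 45.0 and 34.7 CPM in HFD+MEC1 libraries, 19.9, 17.4, 21.9 and 37.2 CPM in HFD libraries and 50.9, 58.1, 49.4 and 53.5 CPM in ND libraries. Every ND library was above every other library, and HFD replicate 4 was the only HFD library above 21.9 CPM. Ccl9 fell in HFD relative to ND (log2 fold change -1.14 ± 0.23, edgeR adjusted p = 0.0140). That call was lost without HFD replicate 3 (-1.09, adjusted p = 0.0555). HFD+MEC1 relative to ND stood at -0.63 ± 0.23 (edgeR adjusted p = 0.149). It passed in 3 of 21 alternatives: DESeq2 (adjusted p = 0.0382), a fit of only the groups compared (adjusted p = 0.0377) and without HFD replicate 4 (adjusted p = 0.0210). Without HFD+MEC1 replicate 3 it was -0.79 (edgeR adjusted p = 0.102). HFD+MEC1 relative to HFD stood at 0.51 ± 0.23 (edgeR adjusted p = 0.332). It passed in 1 of 21 alternatives, without HFD replicate 4 (0.79, edgeR adjusted p = 0.0415). Without HFD+MEC1 replicate 3 it was 0.35 (edgeR adjusted p = 0.635).

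Ccl6 stood at 8.79, 13.4, 26.8 and 14.3 CPM in HFD+MEC1 libraries, 9.64, 10.4, 13.7 and 13.9 CPM in HFD libraries and 5.76, 7.73, 5.53 and 5.79 CPM in ND libraries. All ND libraries were below the other groups, which overlapped each other. Ccl6 rose in HFD+MEC1 relative to ND (log2 fold change 1.35 ± 0.28, 2.55-fold, edgeR adjusted p = 0.0171). The call was lost without ND replicate 1 (adjusted p = 0.0624) or ND replicate 4 (adjusted p = 0.0629). Without HFD+MEC1 replicate 3, the highest library, the log2 fold change was 0.97 and the adjusted p 0.00976 with edgeR. HFD relative to ND stood at 0.94 ± 0.28 and missed the threshold (edgeR adjusted p = 0.0673). It passed in 8 of 21 alternatives, among them DESeq2 (adjusted p = 0.00588), library totals (adjusted p = 0.0214), and edgeR without HFD+MEC1 replicate 1 (adjusted p = 0.0176) or replicate 3 (adjusted p = 0.00482). HFD+MEC1 relative to HFD stood at 0.41 ± 0.27 (edgeR adjusted p = 0.524), and at 0.04 without HFD+MEC1 replicate 3.

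Ccl9 made up less of the pair in every library on the high-fat diet than in every ND library. Of the counts of Ccl6 and Ccl9 together, Ccl9 held 73.8, 70.7, 62.7 and 70.8% in HFD+MEC1 libraries, 67.3, 62.7, 61.4 and 72.9% in HFD libraries and 89.8, 88.3, 89.9 and 90.2% in ND libraries. The log2 ratio of Ccl6 to Ccl9 counts was -1.20 ± 0.317 in HFD+MEC1, -0.972 ± 0.342 in HFD and -3.11 ± 0.132 in ND livers (SD, n = 4 each). The difference was 2.13 for HFD against ND, 1.91 for HFD+MEC1 against ND and -0.23 for HFD+MEC1 against HFD. The pair was chosen because ND libraries did not overlap the others for either gene, so the separation of ND in these ratios follows from that choice and is given as a description, with no test. Kupffer cell markers, given above, were higher in sum in some HFD+MEC1 and HFD libraries than in any ND library. Of the 6, 0 were past the threshold in any comparison and 0 were absent. All 6 were positive in HFD against ND (median log2 fold change 0.28) and in HFD+MEC1 against ND (median 0.41). In HFD+MEC1 against HFD 5 were positive and 1 negative (median 0.12). The part of these markers in the results for Ccl6 and Ccl9 was not tested.

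**Figure D3:**
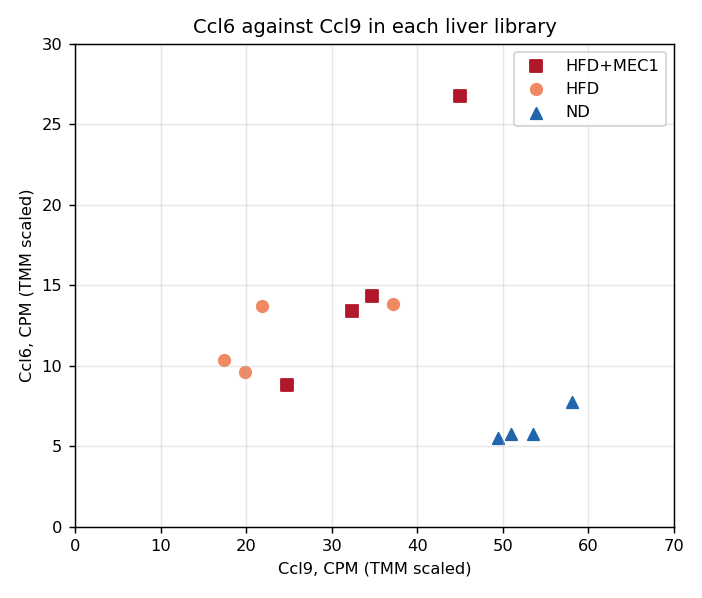
Ccl6 against Ccl9 in CPM, one point per library, with squares for HFD+MEC1, circles for HFD and triangles for ND. The ND libraries lie at the lower right, with Ccl9 of 49.4 to 58.1 CPM and Ccl6 of 5.53 to 7.73 CPM, apart from all libraries on the high-fat diet.

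Ccr1, the main receptor for Ccl6 and Ccl9, was rare, with 22, 10, 24 and 24 counts in HFD+MEC1 libraries, 6, 16, 10 and 8 in HFD libraries and 2, 8, 6 and 4 in ND libraries. Every HFD+MEC1 library lay above every ND library. The log2 fold change of HFD+MEC1 against ND was 1.97 ± 0.60 and missed the threshold (edgeR adjusted p = 0.0721). It passed in 3 of 21 alternatives: DESeq2 (adjusted p = 0.0267), limma on log2(RPKM + 0.1) (adjusted p = 0.0499) and without HFD+MEC1 replicate 2 (adjusted p = 0.0490). Without HFD+MEC1 replicate 3 it was 1.79 (edgeR adjusted p = 0.163). Ccl5, which attracts T cells and monocytes, in part through Ccr1, stood at 0.661 ± 0.0845 CPM in HFD+MEC1, 0.590 ± 0.164 CPM in HFD and 0.272 ± 0.136 CPM in ND livers (SD, n = 4 each). HFD+MEC1 did not overlap ND for Ccl5 (log2 fold change 1.27 ± 0.44, edgeR adjusted p = 0.114), and HFD did (1.11 ± 0.44, edgeR adjusted p = 0.155). DESeq2 called Ccl5 in HFD+MEC1 against ND (adjusted p = 0.0455). Limma on log2(RPKM + 0.1) called it there (adjusted p = 0.0248) and in HFD against ND (adjusted p = 0.0355). That limma fit leans upward: the median of all tested genes was 0.075 for HFD+MEC1 against ND and 0.084 for HFD against ND. Of all its calls, 64.15% and 72.62% were higher, beside 47.2% and 53.19% with edgeR.

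Of the 16 inflammatory CC ligands, 5 were tested, and 3 (Ccl1, Ccl20 and Ccl26) had 0 counts in every library. The fifth tested one, Ccl24, an attractant of eosinophils through Ccr3, ranged from 1.22 to 2.04 CPM in HFD+MEC1, 1.03 to 1.58 CPM in HFD and 1.04 to 2.76 CPM in ND livers. The remaining 8 were too rare to test and are given as raw counts. Ccl3 had 3, 4, 0 and 1 counts in HFD+MEC1 libraries, 4, 0, 0 and 0 in HFD libraries and 10, 4, 0 and 13 in ND libraries. Ccl4 had 8, 4, 1 and 6 counts in HFD+MEC1 libraries, 7, 2, 14 and 6 in HFD libraries and 0, 6, 2 and 0 in ND libraries. Both are macrophage products. Ccl7, a second ligand of Ccr2, had 8, 4, 0 and 0 counts in HFD+MEC1 libraries, 8, 4, 16 and 0 in HFD libraries and 6, 0, 0 and 1 in ND libraries. Ccl22, a ligand of Ccr4, had 10, 10, 0 and 0 counts in HFD+MEC1 libraries, 6, 6, 38 and 0 in HFD libraries and 8, 0, 4 and 4 in ND libraries. Groups overlapped for each of these 4 ligands. Ccl8 had at most 10 counts in a library, Ccl11 at most 10, Ccl12 at most 4 and Ccl17 at most 2.

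Cxcl12 encodes the constitutive ligand of Cxcr4, made by stromal and endothelial cells (chr6:117168535-117181367, plus strand, GRCm38). Cxcl12 stood at 259.8, 299.8, 245 and 194 CPM in HFD+MEC1 libraries, 233, 245, 178 and 207 CPM in HFD libraries and 309.8, 290.0, 270.4 and 308 CPM in ND libraries. HFD libraries all lay below ND libraries, and HFD+MEC1 overlapped both. Cxcl12 fell in HFD relative to ND (log2 fold change -0.45 ± 0.13, edgeR adjusted p = 0.0443). The call was lost with library totals in place of TMM (-0.33, adjusted p = 0.138). It was also lost with limma on log2(RPKM + 0.1) (-0.36, adjusted p = 0.112) or log2(RPKM + 1) (adjusted p = 0.115), and on leaving out any 1 ND library (adjusted p = 0.108, 0.0714, 0.0550 and 0.118 for ND replicates 1 to 4) or HFD replicate 1 (0.0614), 3 (0.147) or 4 (0.0895). With library totals the median of all tested genes moved by 0.12. HFD+MEC1 stood at 0.21 ± 0.13 relative to HFD (edgeR adjusted p = 0.458) and at -0.24 ± 0.13 relative to ND (edgeR adjusted p = 0.329). Sinusoidal endothelial markers summed to 257 to 301 CPM in HFD+MEC1, 216 to 279 CPM in HFD and 158 to 252 CPM in ND livers, with 0 of 6 absent and 0 of 6 past the threshold in HFD against ND, where 5 of 6 were positive (median log2 fold change 0.18). Markers of stellate cells, the liver's stromal cells, summed to 57.7 to 120.7 CPM in HFD+MEC1, 46.4 to 114 CPM in HFD and 76.3 to 143 CPM in ND livers, with 0 of 6 absent. In HFD against ND 0 of 6 passed and 4 of 6 were negative (median -0.29), among them Pdgfrb at -0.70 ± 0.23 (edgeR adjusted p = 0.0775). The part of either list in the result for Cxcl12 was not tested.

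Cxcr4, the receptor of Cxcl12 on leukocytes (chr1:128588199-128592293, minus strand, GRCm38), stood at 0.636, 0.275, 0.616 and 0.459 CPM in HFD+MEC1 libraries, 1.47, 0.949, 1.15 and 1.04 CPM in HFD libraries and 0.813, 0.989, 0.918 and 0.579 CPM in ND libraries. Raw counts were 30, 14, 24 and 20 in HFD+MEC1 libraries, 64, 44, 58 and 47 in HFD libraries and 36, 42, 38 and 28 in ND libraries. All HFD+MEC1 libraries lay below all HFD libraries, and ND overlapped both. The log2 fold change of HFD+MEC1 against HFD was -1.21 ± 0.35 (95% interval -1.96 to -0.46, edgeR adjusted p = 0.143), and DESeq2 called it (adjusted p = 0.0255). HFD against ND stood at 0.48 ± 0.34 (edgeR adjusted p = 0.467) and HFD+MEC1 against ND at -0.73 ± 0.36 (edgeR adjusted p = 0.278). Cxcr4 and Ccl2 were the 2 of 35 members whose HFD+MEC1 and HFD libraries did not overlap, both lower in HFD+MEC1 and 0 higher, beside 3.98% of all tested genes lower and 3.13% higher.

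Cxcr3, the receptor of activated T cells and natural killer cells for Cxcl9, Cxcl10 and Cxcl11, was detected mostly in livers on the high-fat diet (chrX:101731535-101734269, minus strand, GRCm38). It had 24, 30, 8 and 22 counts in HFD+MEC1 libraries, 30, 12, 30 and 16 in HFD libraries and 3, 6, 0 and 0 in ND libraries. This was 0.452 ± 0.169 CPM in HFD+MEC1, 0.474 ± 0.201 CPM in HFD and 0.0523 ± 0.0674 CPM in ND livers (SD, n = 4 each). ND libraries lay below all others, and HFD+MEC1 and HFD overlapped. Cxcr3 rose in HFD relative to ND (log2 fold change 3.13 ± 0.79, edgeR adjusted p = 0.0256) and in HFD+MEC1 relative to ND (3.08 ± 0.79, edgeR adjusted p = 0.0358). With so few ND counts the size of these folds depends on the count added before taking logs. Without ND replicate 2, which held 6 of the 9 ND counts, they were 4.24 for HFD and 4.18 for HFD+MEC1. The HFD call was lost without ND replicate 1 (adjusted p = 0.0572), 3 (0.0598) or 4 (0.0706) or HFD replicate 1 (0.0623) or 3 (0.0718). The HFD+MEC1 call was lost without ND replicate 1 (adjusted p = 0.0790), 3 (0.0653) or 4 (0.0906), without HFD+MEC1 replicate 1 (0.0543), 2 (0.0712) or 4 (0.0702), and in a fit of only the groups compared (0.0700). HFD+MEC1 stood at -0.06 ± 0.63 relative to HFD (95% interval -1.40 to 1.28, edgeR adjusted p = 0.978), an interval too wide to show either a difference or its absence. Of 7 T cell markers listed, only 5 were among the genes counted. These summed to 3.77 to 5.62 CPM in HFD+MEC1, 3.41 to 4.21 CPM in HFD and 2.62 to 5.52 CPM in ND livers. Each of the 5 had counts, and 0 of 5 passed the threshold. Much of that sum is Cd4, whose log2 fold change for HFD against ND was -0.75 ± 0.31 (edgeR adjusted p = 0.170). The other 4 T cell markers were positive in that comparison, among them Cd8a at 1.74 ± 0.71 (edgeR adjusted p = 0.166) and Cd3d at 1.04 ± 0.61 (edgeR adjusted p = 0.364). The median of the 5 was 0.56 for HFD against ND and 1.00 for HFD+MEC1 against ND. Natural killer cell markers summed to 0.688 to 2.10 CPM in HFD+MEC1, 0.626 to 1.58 CPM in HFD and 0.641 to 1.47 CPM in ND livers, with 0 of 6 absent. Their part in the result for Cxcr3 was not tested.

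The interferon-induced ligands of Cxcr3 did not pass. Cxcl9 stood at 9.26, 3.34, 4.41 and 9.38 CPM in HFD+MEC1 libraries, 15.6, 8.52, 14.04 and 8.76 CPM in HFD libraries and 8.15, 7.23, 5.58 and 6.16 CPM in ND libraries. Every HFD library was above every ND library. The log2 fold change was 0.79 ± 0.32 for HFD against ND (edgeR adjusted p = 0.188; 0.0315 in a fit of only those groups), -0.83 ± 0.32 for HFD+MEC1 against HFD (edgeR adjusted p = 0.261) and -0.04 ± 0.33 for HFD+MEC1 against ND (edgeR adjusted p = 0.970). Cxcl10 stood at 1.99 ± 0.794 CPM in HFD+MEC1, 2.81 ± 0.572 CPM in HFD and 1.496 ± 0.643 CPM in ND livers. Its log2 fold change for HFD against ND was 0.91 ± 0.32 (edgeR adjusted p = 0.111); without ND replicate 1 it was 1.24 and passed (adjusted p = 0.0422). For HFD+MEC1 it was -0.50 ± 0.32 against HFD (edgeR adjusted p = 0.498) and 0.41 ± 0.32 against ND (edgeR adjusted p = 0.540). Cxcl11, annotated as a polymorphic pseudogene with 41.7% of its exonic bases under a gene on the opposite strand, ranged from 0.128 to 0.996 CPM in HFD+MEC1, 0.353 to 0.666 CPM in HFD and 0.683 to 1.69 CPM in ND livers. Counting by strand is not stated, so its reads may belong to that other gene.

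Cxcl1 is a neutrophil attractant of the ELR class (named for a Glu-Leu-Arg motif), which acts through Cxcr2, and lies in a cluster with Cxcl2 and Cxcl3 on chromosome 5. The bases before the RefSeq start of these 3 genes are shown because only Cxcl1 had enough counts to test: 250 bases of Cxcl1 (chr5:90890995-90891244) and 120 bases each of Cxcl2 (chr5:90903779-90903898) and Cxcl3 (chr5:90785981-90786100), plus strand, GRCm38.p6. The capitals mark the NF-kappaB consensus, found on both strands of the same 11 bases in each, and a match to TATAAA in Cxcl3. Cxcl1 and Cxcl2 hold cataaaagg, which differs from TATAAA in its first letter and is not marked.
Cxcl1: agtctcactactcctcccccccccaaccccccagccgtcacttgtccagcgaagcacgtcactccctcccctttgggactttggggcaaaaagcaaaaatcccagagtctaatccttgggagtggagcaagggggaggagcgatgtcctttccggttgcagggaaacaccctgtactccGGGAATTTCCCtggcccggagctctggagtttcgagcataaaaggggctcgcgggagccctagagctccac
Cxcl2: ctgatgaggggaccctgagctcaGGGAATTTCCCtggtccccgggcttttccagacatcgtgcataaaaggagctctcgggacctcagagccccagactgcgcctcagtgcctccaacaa
Cxcl3: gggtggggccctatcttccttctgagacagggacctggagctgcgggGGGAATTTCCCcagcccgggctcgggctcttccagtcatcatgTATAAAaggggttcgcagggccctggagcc
The consensus lay 71 to 61 bases before the RefSeq start of Cxcl1, 97 to 87 before that of Cxcl2 and 73 to 63 before that of Cxcl3. The GENCODE start of Cxcl2 (chr5:90903871) lies inside its window, so its distance depends on the start used. Of the 42 members with a promoter in the RefSeq table, 7 held an NF-kappaB consensus, 4 an AP-1 site, 3 an interferon-stimulated response element and 9 a TATA box. A match is a description of letters and not of a bound site.

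Although all 3 windows held the same letters, Cxcl1, Cxcl2 and Cxcl3 differed widely in counts. Cxcl1 stood at 2.01, 8.21, 40.3 and 24.2 CPM in HFD+MEC1 libraries, 1.38, 6.15, 2.97 and 8.84 CPM in HFD libraries and 1.67, 1.08, 0.822 and 2.38 CPM in ND libraries. HFD+MEC1 spanned a wide range, in which replicate 1 lay within the ND range and replicates 3 and 4 lay above all other libraries. The log2 fold change of HFD+MEC1 against ND was 3.63 ± 0.94 and missed the threshold (edgeR adjusted p = 0.0635). It passed with DESeq2 (adjusted p = 0.000407) and without HFD+MEC1 replicate 1 (4.01, adjusted p = 0.0204), and was 2.93 without HFD+MEC1 replicate 3 (adjusted p = 0.131). HFD+MEC1 against HFD stood at 1.95 ± 0.85 (edgeR adjusted p = 0.332), and at 1.25 without HFD+MEC1 replicate 3. HFD against ND stood at 1.69 ± 0.91 (edgeR adjusted p = 0.340). Cxcl2 had 2, 0, 2 and 2 counts in HFD+MEC1 libraries, 16, 16, 0 and 14 in HFD libraries and 9, 8, 3 and 1 in ND libraries, and was not tested. HFD+MEC1 libraries were at or under the 3-count limit for Cxcl2, and HFD replicate 3 had 0. Cxcl3 and Cxcl15 had 0 counts in every library, and Cxcl5 had 8 counts in all.

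The receptor Cxcr2, on neutrophils, stood at 0.593, 0.590, 1.08 and 0.459 CPM in HFD+MEC1 libraries, 0.0459, 0.302, 0.475 and 0.529 CPM in HFD libraries and 0.181, 0.330, 0.193 and 0.455 CPM in ND libraries. In CPM, HFD+MEC1 lay above ND without overlap and did not pass. The gap was small, between 0.459 CPM in HFD+MEC1 replicate 4 and 0.455 CPM in ND replicate 4. Raw counts overlapped, at 20 and 22 in these 2 libraries. The highest Cxcr2 and the highest Cxcl1 were both in HFD+MEC1 replicate 3. Neutrophil markers summed to 3.05 to 13.01 CPM in HFD+MEC1, 1.93 to 10.2 CPM in HFD and 2.13 to 4.80 CPM in ND livers, with 0 of 6 absent and 0 of the 4 tested past the threshold. The 13.01 CPM was that same library, and the part of these markers in the values of Cxcl1 and Cxcr2 was not tested. Cxcr1 had 9 counts in all libraries together.

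**Figure D4:**
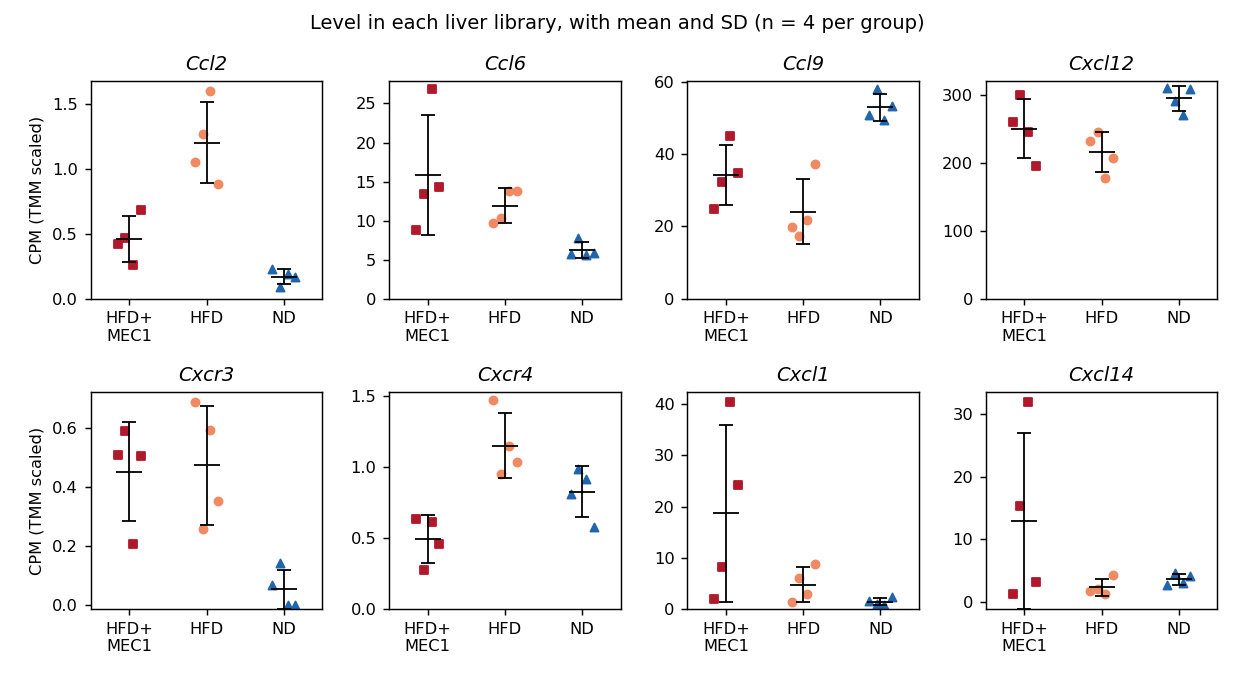
CPM per library (points) with mean and SD (bars) for members named in the text, HFD+MEC1 left of HFD and ND. Ccl2 and Cxcr4 have no overlap between HFD+MEC1 and HFD, ND is above both for Ccl9 and below both for Ccl6 and Cxcr3, and HFD+MEC1 spans 2.01 to 40.3 CPM for Cxcl1.

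The 11 homeostatic ligands were all tested; 1, Cxcl12, fell on HFD and 0 passed in the other comparisons. Their median log2 fold change was -0.31 for HFD against ND, -0.09 for HFD+MEC1 against HFD and -0.24 for HFD+MEC1 against ND. Cxcl14, an epithelial chemokine whose receptor is debated, stood at 1.36, 15.3, 31.9 and 3.26 CPM in HFD+MEC1 libraries, 1.74, 2.03, 1.27 and 4.37 CPM in HFD libraries and 2.66, 4.62, 3.00 and 4.18 CPM in ND libraries. HFD+MEC1 replicates 2 and 3 were above all other libraries, and replicates 1 and 4 were within the range of the other groups. Its log2 fold change was 2.46 ± 0.87 for HFD+MEC1 against HFD (edgeR adjusted p = 0.235), 1.84 ± 0.85 for HFD+MEC1 against ND (edgeR adjusted p = 0.278) and -0.62 ± 0.86 for HFD against ND (edgeR adjusted p = 0.744). Without HFD+MEC1 replicate 3 the first was 1.51 and the second 0.88. Cxcl13, the B cell attractant that acts through Cxcr5, stood at 2.86 ± 1.37 CPM in HFD+MEC1, 1.47 ± 0.849 CPM in HFD and 2.46 ± 0.518 CPM in ND livers (SD, n = 4 each; log2 fold change of HFD+MEC1 against HFD 0.96 ± 0.41, edgeR adjusted p = 0.293).

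Ccl19 and the Ccl21 genes encode the ligands of Ccr7, which guide dendritic cells and naive T cells. Ccl19 ranged from 0.298 to 2.08 CPM in HFD+MEC1, 0.275 to 0.515 CPM in HFD and 0.0471 to 0.677 CPM in ND livers, and Ccl21a from 0.354 to 0.873 CPM in HFD+MEC1, 0.309 to 1.17 CPM in HFD and 0.565 to 1.32 CPM in ND livers. Ccl21b stood at 1.85 ± 0.945 CPM in HFD+MEC1, 2.47 ± 1.18 CPM in HFD and 3.73 ± 0.887 CPM in ND livers, with a log2 fold change of -1.02 ± 0.39 for HFD+MEC1 against ND (edgeR adjusted p = 0.160). Ccl21c had almost the same count as Ccl21b in every library, and Ccl21a shares a run of 208 bases with Ccl21b, so the Ccl21 genes are not separate measurements. Ccl27a and Ccl27b, known from skin, share a run of 210 bases. Ccl27a ranged from 3.72 to 5.28 CPM in HFD+MEC1, 3.88 to 5.76 CPM in HFD and 3.43 to 5.56 CPM in ND livers. Ccl25, a ligand of Ccr9, ranged from 1.51 to 3.34 CPM in HFD+MEC1, 1.73 to 3.15 CPM in HFD and 2.10 to 2.83 CPM in ND livers. For Ccl27a and Ccl25 the groups overlapped throughout. Ccl27b had 2 to 12 counts in HFD+MEC1, 4 to 14 in HFD and 6 to 14 in ND libraries, and Ccl28, a mucosal chemokine, 2 to 8 in HFD+MEC1, 0 to 16 in HFD and 6 to 14 in ND libraries.

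Cxcl16, a transmembrane chemokine that liver endothelium presents to Cxcr6-bearing natural killer T cells (chr11:70453983-70459984, minus strand, GRCm38), stood at 7.34 ± 0.710 CPM in HFD+MEC1, 7.08 ± 0.497 CPM in HFD and 7.29 ± 1.35 CPM in ND livers (SD, n = 4 each). The log2 fold change was -0.04 ± 0.14 for HFD against ND (95% interval -0.35 to 0.26), 0.05 ± 0.14 for HFD+MEC1 against HFD (-0.25 to 0.36) and 0.01 ± 0.14 for HFD+MEC1 against ND (-0.29 to 0.31). Its edgeR adjusted p values were 0.906, 0.905 and 0.982. Of Cxcl16, 18.27% of exonic bases lie under a gene on the opposite strand. Cxcr6 ranged from 0.550 to 1.23 CPM in HFD+MEC1, 0.353 to 0.826 CPM in HFD and 0.141 to 0.827 CPM in ND livers. Cx3cl1, the other transmembrane chemokine, ranged from 0.154 to 0.983 CPM in HFD+MEC1, 0.265 to 0.515 CPM in HFD and 0.283 to 0.474 CPM in ND livers. Its receptor Cx3cr1, found on some monocytes and macrophages, ranged from 0.826 to 1.91 CPM in HFD+MEC1, 0.441 to 1.24 CPM in HFD and 0.754 to 2.19 CPM in ND livers. Groups overlapped for Cxcr6, Cx3cl1 and Cx3cr1. Cxcl17, a mucosal chemokine, had 0, 0, 2 and 0 counts in HFD+MEC1 libraries, 0 in each HFD library and 0, 0, 0 and 5 in ND libraries.

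Of the 11 CC receptors 6 were tested, and 0 passed in any comparison by edgeR. Ccr3, the eosinophil receptor, had 6, 14, 0 and 0 counts in HFD+MEC1 libraries, 12, 14, 10 and 4 in HFD libraries and 0, 0, 2 and 2 in ND libraries. HFD lay above ND without overlap. Its log2 fold change was 3.11 ± 1.14 for HFD against ND (edgeR adjusted p = 0.126), -1.02 ± 0.92 for HFD+MEC1 against HFD (edgeR adjusted p = 0.659) and 2.09 ± 1.21 for HFD+MEC1 against ND (edgeR adjusted p = 0.377). It shares a run of 47 bases with Ccr1, and with 4 ND counts in all these folds are not firm. Ccr7 had 10, 9, 2 and 8 counts in HFD+MEC1 libraries, 18, 20, 34 and 4 in HFD libraries and 4, 12, 13 and 24 in ND libraries. Groups overlapped for Ccr7. Ccr9, the receptor for Ccl25, had 2 to 30 counts in HFD+MEC1, 10 to 22 in HFD and 2 to 24 in ND libraries. Ccr6, a receptor of B cells and some T cells for Ccl20, had 1, 4, 2 and 1 counts in HFD+MEC1 libraries, 12, 0, 7 and 2 in HFD libraries and 0 in each ND library. Ccr10 had up to 17 counts in a library, Ccr1l1 up to 12 and Ccr4 up to 4, and Ccr8 had 0 in every library.

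Of the 8 CXC and other receptors 7 were tested. Besides Cxcr3, 0 passed by edgeR, and DESeq2 called Cxcr4 in HFD+MEC1 against HFD, as given above. Cxcr5, the receptor of B cells for Cxcl13, stood at 0.256 ± 0.123 CPM in HFD+MEC1, 0.167 ± 0.123 CPM in HFD and 0.439 ± 0.180 CPM in ND livers (SD, n = 4 each). The log2 fold change for HFD against ND was -1.37 ± 0.62 (edgeR adjusted p = 0.225). Xcr1, a receptor of cross-presenting dendritic cells, ranged from 0.321 to 0.616 CPM in HFD+MEC1, 0.413 to 0.948 CPM in HFD and 0.193 to 0.517 CPM in ND livers. Its ligand gene Xcl1 had 5, 6, 5 and 10 counts in HFD+MEC1 libraries, 2, 8, 16 and 2 in HFD libraries and 6, 10, 3 and 4 in ND libraries. Groups overlapped for both.

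Across the 35 tested members, CPM of HFD and ND libraries did not overlap for 8. Ccl2, Cxcr3, Ccl6, Ccr3 and Cxcl9 were higher and Ccl9, Cxcl12 and Cxcl11 lower in HFD. These 5 higher and 3 lower stood beside 7.46% of all tested genes higher and 6.81% lower. For Cxcl11 the gap was small (0.666 CPM at most in HFD, 0.683 CPM at least in ND). Its raw counts overlapped, and its reads may belong to another gene, as given above. CPM of HFD+MEC1 and ND libraries did not overlap for 7. Ccl6, Cxcr3, Ccr1, Ccl2, Ccl5 and Cxcr2 were higher and Ccl9 lower in HFD+MEC1. These 6 higher and 1 lower stood beside 5.13% of all tested genes higher and 5.84% lower. For Cxcr2 the gap was small (0.459 against 0.455 CPM), and raw counts overlapped.

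A further 35 genes of chemokine biology were listed, namely scavenging receptors, other attractants and signalling genes, and all were tested. In HFD against ND 1 rose and 0 fell; in HFD+MEC1 against HFD 0 passed; in HFD+MEC1 against ND 1 rose and 1 fell. Ackr4, a scavenger of Ccl19, Ccl21 and Ccl25, stood at 11.6 ± 1.56 CPM in HFD+MEC1, 12.5 ± 1.39 CPM in HFD and 8.19 ± 0.939 CPM in ND livers (SD, n = 4 each). It rose in HFD (log2 fold change 0.61 ± 0.13, edgeR adjusted p = 0.0118) and in HFD+MEC1 (0.51 ± 0.13, edgeR adjusted p = 0.0383) relative to ND. Mif, a cytokine that also binds Cxcr2 and Cxcr4, stood at 32.0 ± 3.81 CPM in HFD+MEC1, 35.0 ± 5.24 CPM in HFD and 46.6 ± 8.63 CPM in ND livers, and fell in HFD+MEC1 relative to ND (-0.54 ± 0.14, edgeR adjusted p = 0.0344).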

How the data were processed

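Total RNA from flash-frozen mouse liver was sequenced after Trizol extraction, per the labels' protocols. The authors deposited whole-number counts per gene in 12 files, 1 for each library, and a single table of RPKM values, per the file headers; 12 columns of the RPKM table match no sample here and were not used. STAR 2.7.10a and mm10 are named in the submitters' processing notes; the counting tool, its annotation and its use of strand are not given in the sources used here. All members were found in the tables; 1 is included in the fits and in the counts of members but is not reported here. Members and gene lists were chosen with earlier results of these data known.

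Genes were filtered with filterByExpr, libraries scaled by TMM, and 1 quasi-likelihood model with robust dispersions was fitted to all 12 libraries with edgeR 4.0.16 in R 4.3.3. Each two-sided F-test was adjusted by Benjamini-Hochberg over 14172 genes, with adjusted p under 0.05 called; the common biological coefficient of variation was 0.200. The script was tested on simulated data. CPM are the deposited counts over TMM-scaled totals. Alternatives were DESeq2 1.42.0, limma 3.58.1 (voom, and log2 of the deposited RPKM plus 0.1 or 1), library totals, RLE factors, no filter, only the groups compared, a replicate block, and each library left out. Genes were named by rule: called members, the 3 largest fold changes of each comparison, the most abundant of 6 of the 7 role groups, and receptors or ligands of the pairs of Ccl2, Cxcr3 and Cxcl12. Other members are given as levels or raw counts, with fold changes where an unadjusted p was under 0.05; which of them have values per library, such as Ccr1 and Cxcr2, was chosen after their values were seen. No replicates matched within counting error (chi-square at least 34.2 per gene). Coordinates are 1-based, from GENCODE M21 (GRCm38), and promoters are from RefSeq GRCm38.p6, where 42 of 58 members matched.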

Additional observations from a re-analysis of the deposited data

Results flagged for a closer look

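In 3 of 102 groups of 4 libraries examined (34 tested members in 3 groups), 1 library stood far from the other 3 of its group; chance alone flags about 1 in 20 groups, so this is no more than chance gives. Ccl19 was 2.08 CPM in HFD+MEC1 replicate 3, against 0.298 to 0.570 CPM in the other HFD+MEC1 libraries. Ccl21a was 0.309 CPM in HFD replicate 4, and 1.08 to 1.17 CPM in HFD replicates 1 to 3. Ccl6 was 7.73 CPM in ND replicate 2, against 5.53 to 5.79 CPM in the other ND libraries, and was still below every library on the high-fat diet.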

How the results depend on the processing

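Of 21 alternatives, Ccl2 in HFD against ND passed in 21, Ccl9 in 20, Cxcr3 in 16 and Cxcl12 in 11; in HFD+MEC1 against ND, Ccl6 passed in 19 and Cxcr3 in 14. For HFD against ND, 2 members were called higher, and 4 with limma on RPKM + 0.1, 4 on RPKM + 1 and 4 with only the groups compared; 2 were called lower, and 1 with library totals and 1 with either RPKM fit. Over all tested genes, 475 were called higher, and 642 with limma on RPKM + 0.1, 647 on RPKM + 1 and 606 with only the groups compared. For lower calls this was 418, and 233 with library totals, 242 on RPKM + 0.1 and 252 on RPKM + 1. Leaving out 1 library gave 1 to 3 members higher and 0 to 2 lower. Over all tested genes it gave 239 to 573 higher and 196 to 537 lower. For HFD+MEC1 against HFD, 0 members were called, beside 4 of all tested genes, and DESeq2 called 2 lower, beside 243 of them. Leaving out 1 library gave 0 to 1 members higher, beside 0 to 172 of all tested genes. For HFD+MEC1 against ND, 2 were called higher, and 6 with DESeq2, 5 with limma on RPKM + 0.1 and 1 with only the groups compared; 0 were called lower, and 1 with DESeq2, 1 with only the groups compared and 2 with the replicate block (Ccl21b and Ccl21c). Over all tested genes, 304 were called higher, and 548 with DESeq2, 374 with limma on RPKM + 0.1 and 218 with only the groups compared. For lower calls this was 340, and 607 with DESeq2, 288 with only the groups compared and 377 with the replicate block. Leaving out 1 library gave 0 to 2 members higher and 0 to 1 lower. Over all tested genes it gave 139 to 325 higher and 191 to 364 lower. The cause was not tested. Equal replicate numbers were not taken as pairs: 1 of 12 correlations of same-numbered libraries was over 0.1, and 4 of 12 libraries correlated best with their own number. With the replicate block, the count of members called higher in HFD against ND was 3, beside 476 of all tested genes.

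Signs reversed only for values near 0 that had not passed. For Cxcl16 in HFD against ND, the log2 fold change was 0.076 with library totals, 0.066 with RPKM + 0.1 and 0.048 with RPKM + 1, and -0.11 to 0.087 with 1 library left out. In HFD+MEC1 it was -0.0027 against HFD with library totals, and -0.058 to 0.14 against ND with 1 library left out. Cxcl9 in HFD+MEC1 against ND was 0.046 with library totals and -0.26 to 0.18 with 1 library left out. With 1 library left out, Cxcr3 in HFD+MEC1 against HFD was -0.26 to 0.18. Depth limits Cxcr3, Ccr1, Ccr3 and the 17 untested members with counts, whose ND or HFD+MEC1 values lie near 3 counts. It also limits the size of the Ccl2 fold against ND, where libraries held 10, 4, 8 and 8 counts.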
